A study of Danio rerio with 6 samples.

Results

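Solute carriers were examined in zebrafish blastulas with raised Nodal signalling. All genes whose platform symbol began with *slc* and a family number were taken, apart from *slc40a1*, which gave 303 genes with 441 features. A gene was represented by the brightest of its features, and the members were chosen by the mean log2 signal of that feature on the 6 arrays: the 78 genes at 10 or more were kept, of 14434 named genes on the array. The 3 kept genes nearest the threshold were *slc39a1*, *slc17a5* and *slc35a1*, with means of 10.03, 10.05 and 10.14, and the 3 nearest below it were *slc16a9b*, *slc25a42* and *slc2a8*, with means of 9.97, 9.93 and 9.93. The threshold took the arrays together and did not use the difference between the groups, which was 0.95, 0.77 and 0.46 log2 units in the last 3. It could still be met through 1 group: *slc35d1a*, *slc35a1* and *slc2a12* had a control-injected mean under 10 and an *ndr1*-injected mean above it, *slc17a5* and *slc38a10* the reverse, and 73 carriers had both means at 10 or more.

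The 6 samples were whole AB embryos at sphere stage, about 200 embryos each. Embryos of the 3 control-injected samples had received 1 nl of water, and those of the 3 *ndr1*-injected samples the same volume holding 50 pg of mRNA for the Nodal ligand gene *ndr1*. By the sample labels the control injection held no mRNA, and an effect of injected RNA and one of the Nodal ligand then cannot be told apart. The study's general injection methods instead name *egfp* mRNA as the control. No label ties a sample to a clutch of its own. The p-values below therefore measure only how far these samples spread, which may be technical.

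Solute carriers are membrane proteins that move amino acids, sugars, ions, metals and metabolites, either down a gradient or coupled to another solute. Families are numbered by sequence, and most have 1 kind of cargo. The *slc25* family spans the inner mitochondrial membrane, and many *slc35* members load the Golgi and endoplasmic reticulum with nucleotide sugars. The *slc30* and *slc39* members carry zinc out of and into the cytosol. A blastula cell draws on maternal transcripts and on yolk, and many carriers of differentiated organs, such as those for neurotransmitters or bile acids, serve tissues that have not yet formed.

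The injected gene was read first. *ndr1* read 10.61, 10.10 and 10.87 in control-injected replicates 1 to 3 and 13.79, 14.85 and 13.89 in *ndr1*-injected replicates 1 to 3, without overlap. Its difference of 3.65 ± 0.37 log2 units (SE) had an adjusted p of 0.0658 in limma, and the organizer gene *gsc* differed by 3.24 ± 0.26 with an adjusted p of 0.0401. As for the stage, 7 of 8 listed early zygotic genes were measured, with means from 11.73 to 14.10, and all 4 maternal regulators had means from 12.37 to 15.38. All were lower in *ndr1*-injected embryos. The early zygotic genes differed by -0.73 (*sox3*, adjusted p = 0.694 in limma) to -0.04, with a median of -0.22. The maternal regulators differed by -0.42 to -0.01, with a median of -0.21. Marker lists for other layers had median differences of 0.10 for 5 enveloping layer, 0.27 for 6 yolk syncytial layer and -0.15 for 5 germ plasm genes, and the widest differences in them were 1.45 ± 0.34 for *krt18a.1* and 2.31 ± 0.56 for *gata6*, with adjusted p of 0.623 and 0.669 in limma. The yolk syncytial layer list was dim, with means from 8.74 to 12.46, a median of 9.08, and 8.82 for *gata6*. Its brightest gene, *mxtx2*, is also in the early zygotic list. Of 6 markers of differentiated larval tissue 3 were measured, and means ran from 8.54 for *fabp10a* to 11.02 for *ins*. The mean of *ins* was above the signal threshold of 10 used for the carriers. The part of cell composition in the values below was not tested, and fewer cells of a type cannot be told apart from less RNA per cell. Across all features, arrays correlated from 0.836 to 0.886 within the control-injected and from 0.920 to 0.926 within the *ndr1*-injected group.

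Metal carriers, mitochondrial carriers and the *slc35* family had larger shares above the signal threshold than amino acid, ion and sugar carriers. Of the 303 genes 78, or 25.7%, were kept, against 39.5% of all named genes. The shares were 72.2% for metal carriers (13 of 18), 43.5% for *slc35* (10 of 23) and 39.6% for *slc25* (19 of 48). Amino acid carriers kept 15 of 64 and carriers of inorganic ions and urea 10 of 41. The neurotransmitter and amino acid family *slc6* kept 1 of 19, the hexose family *slc2* 1 of 14, and the organic ion family *slc22* and the sodium-coupled family *slc5* kept 0 of 13 and 0 of 8. Of 48 families 29 kept at least 1 gene. These shares follow from the rule and carry no test, and a signal depends on the probe as well as the transcript, so the order of signals is not an order of transcript numbers.

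**Figure D1:**
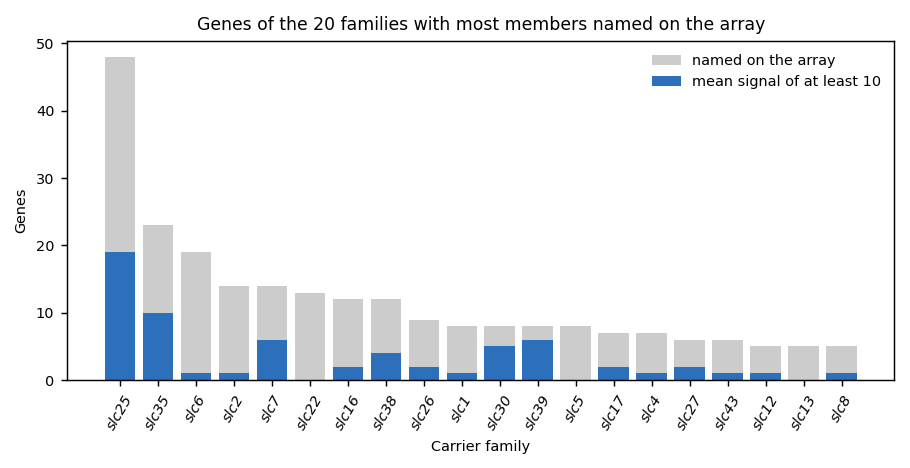
Number of genes per carrier family named on the array (grey) and with a mean log2 signal of at least 10 over the 6 arrays (blue, drawn over the grey bar), for the 20 families with most named genes. The *slc25* bar shows 19 of 48 genes kept and the *slc6* bar 1 of 19.

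The question was whether raised Nodal signalling moved these carriers. In the limma fit over all named genes 0 of the 78 carriers passed an adjusted p of 0.05, where 0.0208% of named genes did (3 of 14434) and 0.0526% of the 5707 named genes with a mean of at least 10. At an unadjusted p below 0.05 there was 1 carrier, *slc35d1a*, which is 1.28% of 78, against 6.93% of all named genes and 3.36% of those with a mean of at least 10. With the replicate number as a block, the 1 carrier below 0.05 was *slc2a12* in place of *slc35d1a*. The study used a p cutoff of 0.02 and does not say whether it was adjusted. At an unadjusted p of at most 0.02 in the limma fit here there were 0 carriers, against 2.74% of all named genes and 1.52% of those with a mean of at least 10. The study mapped probes to genes in another way, so this is not its own result for these genes. Differences between *ndr1*-injected and control-injected embryos ran from -0.63 to 1.02 log2 units, with 34 carriers above and 44 below 0. The median was -0.03 for the carriers and -0.003 for the genes with a mean of at least 10, and the median absolute difference was 0.21 in both sets.

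A p above the threshold does not show that a carrier was unmoved, so the intervals were read. The 95% interval of the difference lay within 1 log2 unit of 0 for 56 of 78 carriers, or 71.8%, against 42.5% of all named genes and 75% of those with a mean of at least 10. Of the other 22 the interval passed 1 log2 unit above 0 for 10, below 0 for 10, and on both sides for 2. The narrowest interval was that of the mitochondrial aspartate-glutamate carrier gene *slc25a12*, from -0.46 to 0.53, and the widest that of *slc35a1*, from -0.35 to 2.40. In 72 carriers the difference was under 0.5 in size, which is 92.3%, against 73.4% of all named genes and 88.4% of those with a mean of at least 10. In 1, *slc35a1*, it was at least 1, as it was in 5.01% and 1.87% of these sets.

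**Figure D2:**
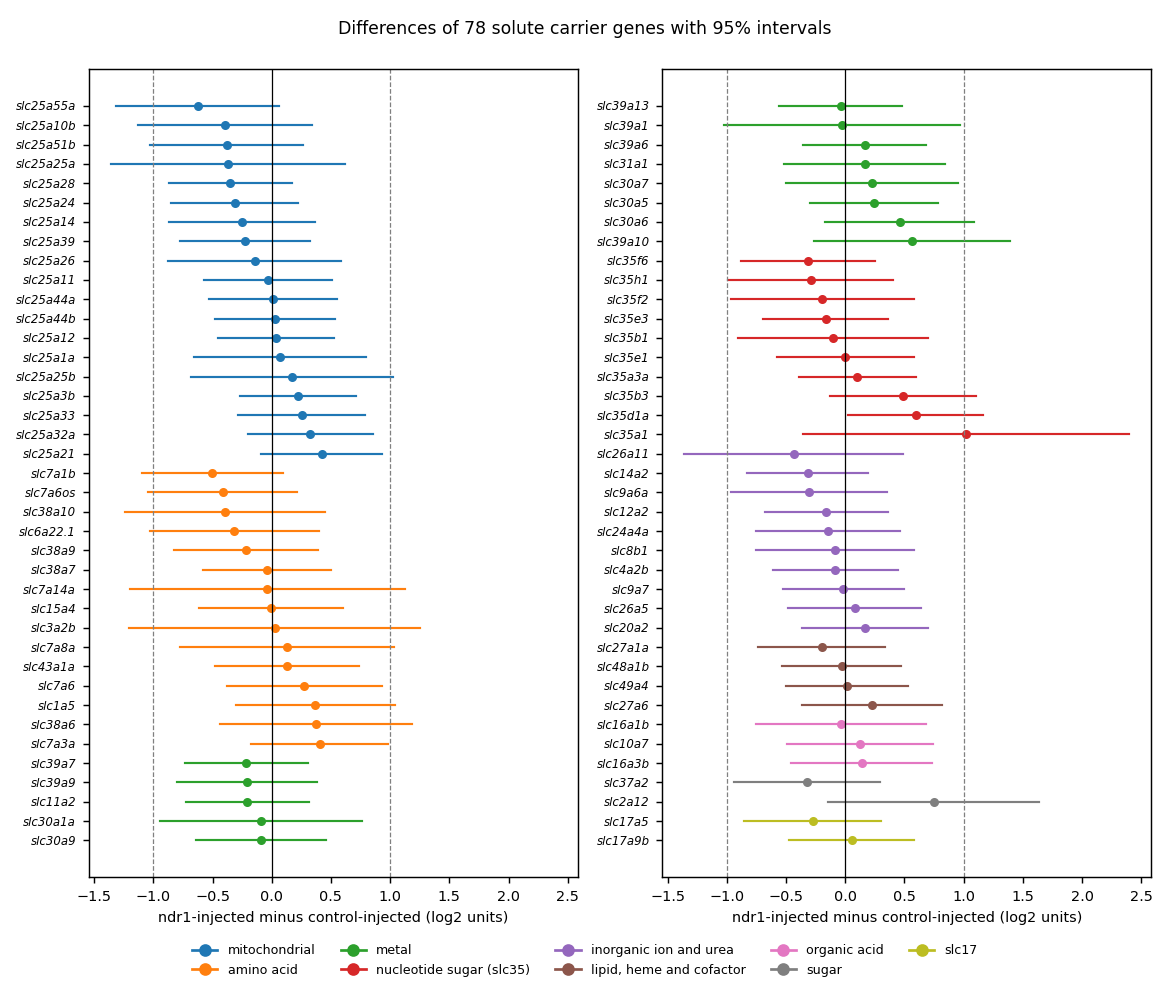
Difference between *ndr1*-injected and control-injected embryos (log2 units, points) with its 95% interval from limma (lines) for the 78 carriers, coloured by cargo. Dashed lines mark 1 log2 unit either side of 0. Of the intervals, 56 lie between the dashed lines, and only that of *slc35d1a* leaves out 0.

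In 9 carriers all values of one group lay beyond all values of the other, which is 11.5%, against 14% of all named genes and 17.1% of those with a mean of at least 10. They were higher in *ndr1*-injected embryos in 6, *slc35d1a*, *slc35a1*, *slc25a21*, *slc25a3b*, *slc30a6* and *slc7a3a*, and lower in 3, *slc25a28*, *slc25a24* and *slc14a2*. These are 7.69% and 3.85%, against 8.11% and 5.86% of all named genes and 8.95% and 8.18% of those with a mean of at least 10. Of the 9, *slc35d1a* and *slc35a1* had passed the signal threshold only through the *ndr1*-injected group, where they were high. Among the 73 carriers with both means at 10 or more the groups were apart in 7 and 0 had an unadjusted p below 0.05. The share of named genes under that same filter is not given here, so these counts have no background beside them. An exact permutation test of 3 arrays against 3 cannot go below p = 0.1.

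Among the *slc35* members, filed together as nucleotide sugar carriers, *slc35d1a* and *slc35a1* had the groups apart. Both were among the carriers kept only through their *ndr1*-injected mean. Many *slc35* members supply the lumen of the Golgi and endoplasmic reticulum with building blocks for glycans. The mammalian counterpart of *slc35d1a* carries UDP-glucuronic acid for proteoglycan synthesis. *slc35d1a* read 9.72, 10.05 and 10.16 in the controls and 10.82, 10.49 and 10.40 in *ndr1*-injected replicates 1 to 3. Every *ndr1*-injected value was above every control-injected one. The difference was 0.59 ± 0.24 (SE), with a 95% interval from 0.02 to 1.17 and an adjusted p of 0.712 in limma. Its next brightest feature differed by 0.79 and its dimmest by -0.33. With the position trend, described below, subtracted in square windows of 9 and 15 features a side the difference was 0.36 and 0.43. The unadjusted p then no longer passed 0.05. It also failed to pass without any 1 of the arrays other than control-injected replicate 3, and with the replicate number as a block. With an intensity trend and robust variance the unadjusted p was 0.051 in limma, and with the mean of all features it was 0.262.

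*slc35a1*, the CMP-sialic acid carrier gene, read 10.26, 10.45 and 8.17 in the controls and 10.72, 10.64 and 10.59 in *ndr1*-injected embryos. Control-injected replicate 3 lay far below the other 5 arrays, and without it the difference of 1.02 ± 0.58 (SE) was 0.29. *slc35b3*, which carries the sulfate donor PAPS, read 10.50, 10.38 and 9.89 in the controls and 10.50, 10.84 and 10.89 in *ndr1*-injected embryos, a difference of 0.49 ± 0.26 with groups that overlapped, or 0.21 with position subtracted in windows of 9. The 7 other *slc35* members lay between -0.32 and 0.10. Among them *slc35a3a*, a UDP-N-acetylglucosamine carrier gene, had values from 11.09 to 11.36 on all arrays and a difference of 0.10 ± 0.21, but its dimmer feature differed by 1.19. The genes *slc35b1* and *slc35e1* differed by -0.11 ± 0.34 and by less than 0.001 in size. The lowest of the family was *slc35f6*, at -0.32 ± 0.24, or -0.07 with position subtracted. In this family 4 members were above and 6 below 0.

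The 19 mitochondrial carriers were spread to both sides of 0, with 9 above and 10 below, a median of -0.03 and a range from -0.63 to 0.42. *slc25a55a* read 13.32, 13.26 and 12.91 in the controls and 13.04, 12.32 and 12.25 in *ndr1*-injected embryos. The difference was -0.63 ± 0.29 (SE, adjusted p = 0.712 in limma), and only *ndr1*-injected replicate 1 overlapped the control-injected values. Without that array the difference was -0.88 (unadjusted p = 0.0158, adjusted p = 0.949 in limma), and without *ndr1*-injected replicate 3 it was -0.48. With position subtracted in windows of 9 and 15 it was -0.26 and -0.24. The unadjusted p in limma was 0.0693 as fitted and 0.0388 with array weights. It was 0.0342 when only genes with a mean of at least 10 were fitted, and 0.0122 with an intensity trend and robust variance. The other features of *slc25a55a* differed by -0.31 and -0.02.

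*slc25a21*, the oxodicarboxylate carrier gene, read 10.04, 10.23 and 10.10 in the controls and 10.58, 10.68 and 10.38 in *ndr1*-injected embryos. The groups did not overlap and differed by 0.42 ± 0.22 (SE), a value that was 0.06 once position was subtracted in windows of 9. *slc25a28*, which encodes the iron importer mitoferrin 2, read 11.92, 11.62 and 11.56 against 11.28, 11.42 and 11.35. All its *ndr1*-injected values were lower, by 0.35 ± 0.22 on average, and its 3 dimmer features also lay below 0, at -0.32, -0.17 and -0.54. *slc25a24*, an ATP-magnesium/phosphate carrier gene, had non-overlapping groups at -0.31 ± 0.23, but its second feature differed by 0.84. *slc25a25a*, of the same kind, read 12.97, 13.48 and 13.38 against 12.001, 13.16 and 13.54. Its *ndr1*-injected replicate 1 was the lowest array, and the difference of -0.37 ± 0.42 was 0.08 without it.

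Carriers that serve oxidative phosphorylation, the malate-aspartate shuttle and mitochondrial cofactor supply came next, and their values depended on whether position was subtracted. The phosphate carrier gene *slc25a3b* read 13.74, 13.82 and 13.85 in the controls and 14.10, 13.90 and 14.08 in *ndr1*-injected embryos. Its groups were apart by 0.22 ± 0.21 (SE), and 2 other features differed by -0.23 and 0.05. *slc25a12* had a difference of 0.04 ± 0.21 and *slc25a11*, the oxoglutarate-malate carrier gene, -0.03 ± 0.23, although the dimmer feature of *slc25a11* differed by 0.67. The citrate carrier gene *slc25a1a* differed by 0.07 ± 0.31, the glutathione carrier gene *slc25a39* by -0.23 ± 0.23 and the *S*-adenosylmethionine carrier gene *slc25a26* by -0.14 ± 0.31. For folate entry *slc25a32a* differed by 0.33 ± 0.22, with -0.06 once position was subtracted, and for NAD *slc25a51b* by -0.38 ± 0.27, with 0.28 on its second feature. With position subtracted in windows of 9, *slc25a12* differed by 0.97, *slc25a11* by 0.44 and *slc25a1a* by -0.49. *slc25a39* then turned to 0.24 and *slc25a25a* to 0.04, while *slc25a3b* was at 0.31 and *slc25a24* at -0.13.

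**Figure D3:**
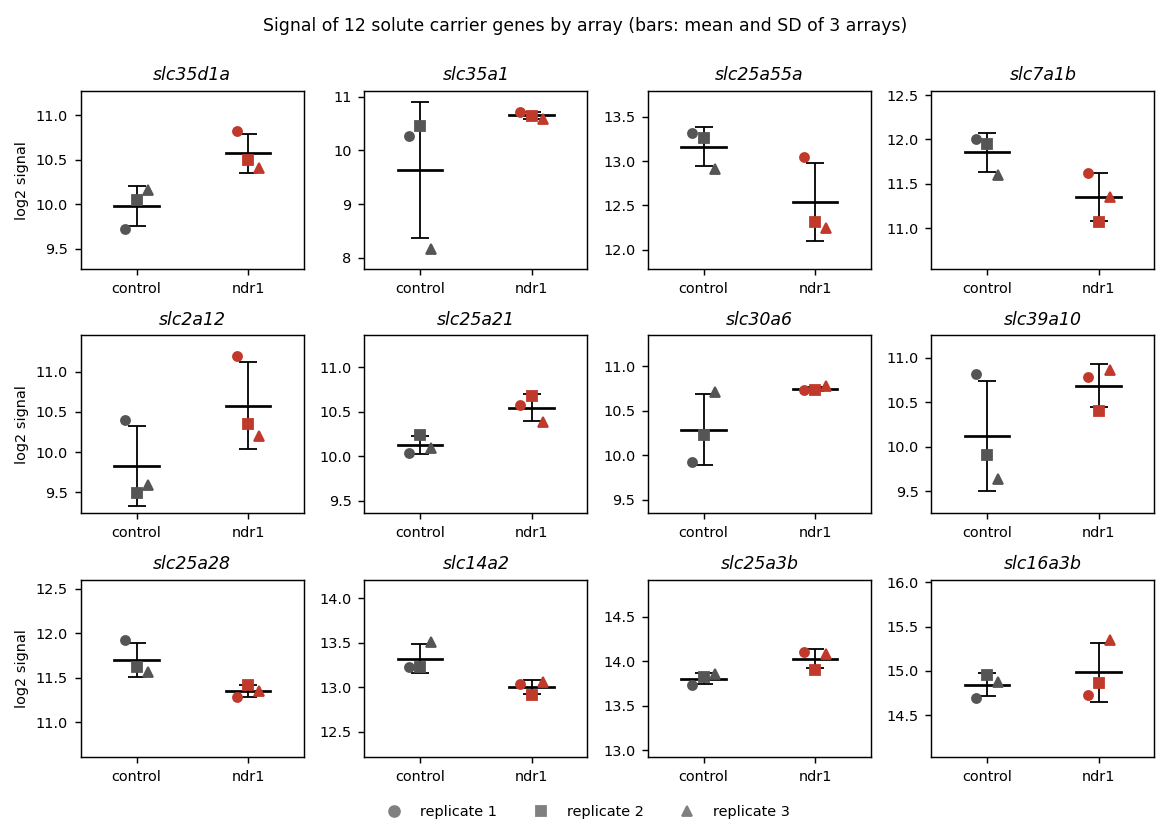
Log2 signal of 12 carriers by array, with marker shape giving the replicate and bars the mean and SD of 3 arrays; each panel has its own vertical axis. The groups are apart for *slc35d1a*, *slc35a1*, *slc25a21*, *slc30a6*, *slc25a28*, *slc14a2* and *slc25a3b*, and control-injected replicate 3 of *slc35a1* sits at 8.17.

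The 15 genes filed with the amino acid carriers had a median difference of -0.01 and a range from -0.50 to 0.41, with 7 above and 8 below 0. The cationic amino acid carrier gene *slc7a1b* read 12.01, 11.95 and 11.60 in the controls and 11.62, 11.08 and 11.36 in *ndr1*-injected embryos, which overlapped at 1 value. Its difference was -0.50 ± 0.25 (SE, adjusted p = 0.736 in limma), or -0.27 with position subtracted in windows of 9. Its relative *slc7a3a* stood on the other side, with 10.05, 10.28 and 10.40 against 10.96, 10.44 and 10.54, at 0.41 ± 0.25 and without overlap. The difference of *slc7a3a* was 0.04 once position was subtracted. The neutral amino acid exchanger gene *slc1a5* read 11.87, 11.01 and 11.69 against 11.96, 11.79 and 11.93, a difference of 0.37 ± 0.28 that was 0.11 without control-injected replicate 2, the lowest array.

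The heavy chain gene *slc3a2b* and the light chain gene *slc7a8a*, whose proteins pair to form a heteromeric exchanger, differed between replicates more than between groups. *slc3a2b* read 11.25, 9.70 and 10.70 in the controls and 11.46, 10.27 and 9.99 in *ndr1*-injected embryos, a difference of 0.02 ± 0.52 (SE). *slc7a8a* read 11.76, 11.05 and 11.19 against 12.20, 11.18 and 10.99, a difference of 0.12 ± 0.38. In both genes replicate 1 was the highest of each group. *slc7a14a* had the same order of replicate 1, with 11.60 and 11.45 there, and a difference of -0.04 ± 0.49. Dimmer features of *slc3a2b* differed by 0.72 and 0.79 and those of *slc7a8a* by 1.22, -0.05 and 0.85, so the features of these genes were not alike.

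Replicate 1 was the highest array of both groups in 13 of the 78 carriers, or 16.7%, against 11.8% of genes with a mean of at least 10. The highest array had the same number in both groups in 37 carriers, or 47.4%, against 39.4%. The labels do not say what the replicate numbers share.

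Of the lysosomal amino acid carriers, *slc38a7*, *slc15a4* and *slc38a9*, the last an arginine sensor of the mTORC1 pathway in mammals, differed by -0.04 ± 0.23, -0.01 ± 0.26 and -0.22 ± 0.26 (SE). With position subtracted in windows of 9, *slc38a7* and *slc38a9* were at 0.46 and 0.51, and *slc15a4* at 0.05. *slc43a1a*, a carrier gene of large neutral amino acids, differed by 0.13 ± 0.26, and its other features by 0.03 each. *slc7a6os* matched the symbol rule but is not a carrier. It lies next to *slc7a6* in the RefSeq gene order of GRCz12tu and is named for the opposite strand, and whether its features read it alone is not known here. It differed by -0.42 ± 0.27 and by 1.11 on its second feature, while *slc7a6* differed by 0.28 ± 0.28. Without it 77 carriers remained, with a median of -0.03.

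The 13 metal carriers had a median of -0.02, with 6 above and 7 below 0. *slc39a10*, a zinc importer gene, read 10.82, 9.91 and 9.64 in the controls and 10.79, 10.41 and 10.87 in *ndr1*-injected embryos. The groups overlapped through control-injected replicate 1, and the difference was 0.57 ± 0.35 (SE), or 0.91 without that array (adjusted p = 0.643 in limma) and 0.32 without control-injected replicate 3. It was 0.89 with position subtracted in windows of 9. *slc39a6*, the importer gene of the same branch that acts in cell movement of the zebrafish gastrula, read 12.09, 11.77 and 11.99 against 12.11, 11.97 and 12.25, and differed by 0.16 ± 0.22.

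*slc30a6*, whose mammalian protein pairs with that of *slc30a5* to load zinc into the early secretory pathway, read 9.92, 10.23 and 10.72 in the controls and 10.73, 10.74 and 10.78 in *ndr1*-injected embryos. Its *ndr1*-injected values spanned less than 0.1 and lay just above the highest control-injected one. The difference was 0.46 ± 0.27 (SE), and 0.06 once position was subtracted. The partner gene *slc30a5* differed by 0.24 ± 0.23, with 1.21 on a dimmer feature and -0.21 with position subtracted. *slc39a7* and *slc39a13*, zinc carrier genes of the secretory pathway, differed by -0.21 ± 0.22 and -0.04 ± 0.22, the iron and manganese importer gene *slc11a2* by -0.21 ± 0.22 and the copper importer gene *slc31a1* by 0.16 ± 0.29. For *slc11a2* the sign held only on the brightest feature as deposited: its other features differed by 0.36 and 1.11, and it was at 0.24 with position subtracted in windows of 9, where *slc39a13* was at 0.22 and *slc31a1* at 0.55.

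Of 10 carriers of inorganic ions and urea 8 were below and 2 above 0, with a median of -0.12 and a range from -0.43 to 0.17. The urea carrier gene *slc14a2* read 13.23, 13.22 and 13.51 in the controls and 13.03, 12.91 and 13.06 in *ndr1*-injected embryos. All *ndr1*-injected values were lower, at -0.32 ± 0.22 (SE, adjusted p = 0.756 in limma), and a much dimmer feature differed by -0.29. *slc12a2*, the sodium-potassium-chloride cotransporter gene, differed by -0.16 ± 0.22, the bicarbonate exchanger gene *slc4a2b* by -0.08 ± 0.22 and the organellar sodium/proton exchanger genes *slc9a6a* and *slc9a7* by -0.30 ± 0.28 and -0.02 ± 0.22. *slc20a2*, a phosphate importer gene, was at 0.17 ± 0.23 and *slc26a5* at 0.08 ± 0.24. With position subtracted in windows of 9, *slc12a2* was at -0.33 and *slc20a2* at 0.42, while *slc9a6a* was at -0.05. The second feature of *slc12a2* differed by 0.20.

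Carriers filed with organic acids or with sugars made up a small remainder. The monocarboxylate carrier gene *slc16a3b* had the highest signal of the 78, with 14.70, 14.96 and 14.87 in the controls and 14.73, 14.87 and 15.35 in *ndr1*-injected embryos, and differed by 0.14 ± 0.25 (SE), with its second feature at -0.001. *slc16a1b* differed by -0.03 ± 0.30 and *slc10a7* by 0.13 ± 0.26. The hexose carrier gene *slc2a12* read 10.41, 9.50 and 9.59 against 11.20, 10.34 and 10.20. Its *ndr1*-injected replicate 1 was highest, and both other *ndr1*-injected values fell below control-injected replicate 1, so the groups overlapped. Between arrays of the same replicate number it was higher after *ndr1* injection by 0.79, 0.85 and 0.60, and whether these numbers pair the samples is not stated. It too was kept only through its *ndr1*-injected mean. The difference was 0.75 ± 0.38 (adjusted p = 0.736 in limma), and a second feature of nearly the same brightness differed by 0.05. The difference was 0.46 with position subtracted in windows of 9. The sugar phosphate carrier gene *slc37a2* differed by -0.32 ± 0.26.

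The 4 lipid, heme and cofactor carriers lay between -0.20 and 0.23, with *slc27a1a* and *slc27a6*, fatty acid carrier genes, at -0.20 ± 0.23 and 0.23 ± 0.25 (SE), the heme carrier gene *slc48a1b* at -0.03 ± 0.21 and *slc49a4* at 0.02 ± 0.22. *slc17a5*, the lysosomal sialic acid exporter gene, differed by -0.28 ± 0.24 and *slc17a9b*, a vesicular nucleotide carrier gene, by 0.05 ± 0.22. With position subtracted in windows of 9, *slc48a1b* was at 0.47 and *slc17a5* at 0.04.

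**Figure D4:**
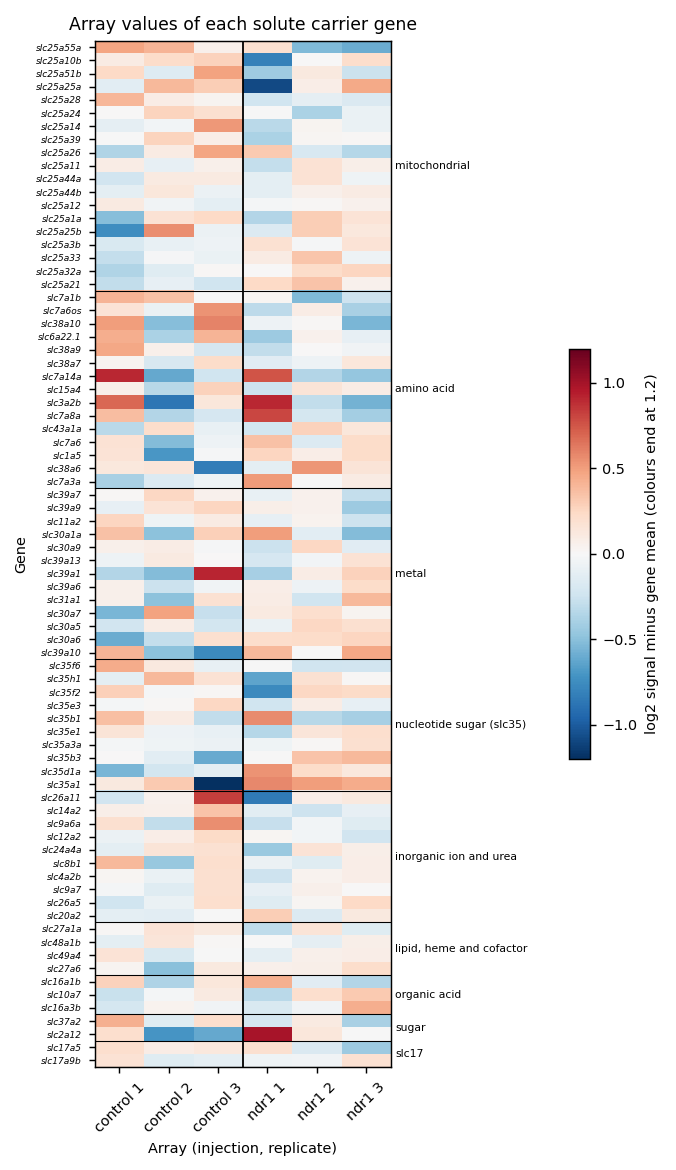
Log2 signal of each carrier on each array minus its mean over the 6 arrays, by cargo and, within cargo, by the difference between the groups. Red is above and blue below the gene's mean, the colours end at 1.2, and control-injected replicate 3 of *slc35a1* and replicate 1 of both groups for *slc3a2b* and *slc7a14a* stand out.

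Replicates of the kept carriers varied about as much as those of other genes of like signal. The median SD between replicates was 0.22 in the controls and 0.23 after *ndr1* injection, against 0.22 and 0.22 for genes with a mean of at least 10, and the control-injected SD was the larger in 45 of 78 carriers. The SD ran from 0.02 for *slc35a3a* to 1.26 for *slc35a1* in control-injected embryos.

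Of 41 carriers with more than 1 feature, 22 had a second feature whose difference had the same sign as the first, and of the 25 whose second feature also had a mean of at least 10, 13 did. Signals also drifted with position across the array. When the local median deviation in square windows of 9 by 9 features was subtracted, 53 of 78 carriers kept their sign and 27 moved by more than 0.3. Then 4 carriers, 5.13%, had an unadjusted p below 0.05, against 5.89% of all named genes and 5.48% of those with a mean of at least 10. They were *slc25a12* at 0.97 ± 0.21 (SE, adjusted p = 0.423), *slc39a10* at 0.89 ± 0.29, *slc38a9* at 0.51 ± 0.21 and *slc1a5* at 0.47 ± 0.21 (adjusted p = 0.789 for these 3 in limma). With windows of 15, *slc25a12* and *slc39a10* had a p below 0.05, at 0.78 and 0.96 (5.94% of all named genes and 4.56% of those with a mean of at least 10 did), and in neither case was a carrier called after adjustment. Of all named genes 0.111% and 0.18% were called with windows of 9 and 15. As deposited, *slc25a12* read 12.63, 12.47 and 12.40 in the controls and 12.50, 12.53 and 12.57 in *ndr1*-injected embryos, with groups that overlapped. With windows of 9, the share of 95% intervals within 1 log2 unit of 0 fell from 75% to 63.7% of named genes with a mean of at least 10. It rose from 21.3% to 69.7% of those under 10, and from 71.8% to 75.6% of the carriers. The position-subtracted values are given beside the deposited ones and not as a correction of them.

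**Figure D5:**
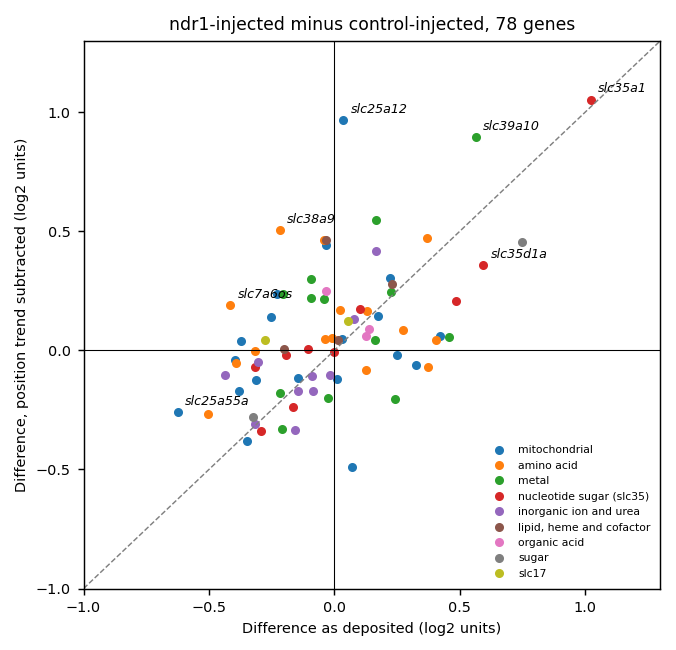
Difference between *ndr1*-injected and control-injected embryos of the 78 carriers (log2 units), as deposited (horizontal axis) and after subtraction of the position trend (vertical axis). Windows of 9 by 9 features were used. The dashed line marks equal values, and *slc25a12* lies farthest above it, at 0.04 and 0.97.

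The 225 carriers below the signal threshold had a median difference of -0.07, and 0 were called in limma. At an unadjusted p below 0.05 there were 22, 10 higher and 12 lower, which is 9.78% against 9.26% of all named genes below the threshold, 5.72% higher and 3.54% lower. The table gives no detection calls, so whether such dim features measured a transcript is not known here.

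Other transport genes were read for comparison. Of 85 named ABC transporter, ATPase, vacuolar proton pump, aquaporin and organic anion carrier genes 25 passed the signal threshold, 15 of them vacuolar proton pump subunits, and 0 were called in limma. At an unadjusted p below 0.05 there was 1 of the 25, against 6.93% of all named genes and 3.36% of those with a mean of at least 10. It was the proton pump subunit gene *atp6v0cb*, with 12.61, 12.72 and 12.67 in the controls and 11.69, 12.47 and 11.92 in *ndr1*-injected embryos. Its difference was -0.64 ± 0.27 (SE, adjusted p = 0.712 in limma). The 15 proton pump genes had a median of -0.29 and a range from -0.64 to 0.67, which *atp6v1aa* marked at the upper end.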

How the data were processed

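The deposited table holds log2 values that the authors had qspline normalised, 1 per feature and array, from Alexa Fluor-labelled cDNA, made from 15 µg of total RNA per sample, on 1-colour Agilent arrays. The log2 scale was read from the range, 4.92 to 16.3. The background correction is not given in the sources used here, nor is a scan batch. The array names no genome build, so no coordinates are given.

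Of 45220 features 21061 had 1 gene symbol in the platform table, and symbols were updated through Entrez numbers (20133) or accessions (408) with the GRCz12tu RefSeq annotation. Groups came from the sample titles. Differences, intervals and p were fitted with limma 3.58.1 in R 4.3.3 without covariates over 14434 genes, with Benjamini-Hochberg adjustment. Tested on simulated data (14434 genes, 200 of them changed), it recovered 2%, 70%, 76% and 84% of changes of 1, 2, 3 and 4 log2 units, with 3 false calls. The simulated noise was independent between genes, without the position trend, and the changed genes were drawn from all named genes. The rates are therefore not those of the carriers. The labels' amount of *ndr1* mRNA and water control were followed. The study's general injection methods give a smaller amount and *egfp* mRNA.

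The members, cargo groups and lists were chosen with earlier results of these data known. Named are the 15 carriers with the smallest p, the 3 of highest signal per cargo group, the 10 of highest signal and those at the threshold. All others, among them *slc25a12*, *slc38a9*, *slc3a2b*, *slc7a8a* and *slc39a6*, were picked with values in view. Position was taken from the feature number, on a grid of 85 columns set by the lag at which deviations correlated again. A window of 9 or 15 was a square on this grid with that many features a side. No authors' comparison columns were used.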

Additional observations from a re-analysis of the deposited data

How the results depend on the processing

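In all 20 alternatives 0 carriers passed an adjusted p of 0.05 with limma, the lowest adjusted p being 0.41, for *slc38a10* without control-injected replicate 2. The count of carriers at an unadjusted p below 0.05 was 1 as fitted and 2 with array weights, *slc35d1a* and *slc25a55a*. It was 4 when only genes with a mean of at least 10 were fitted, or 5.13%, against 8.53% of the genes fitted. It was 2 with an intensity trend and robust variance, or 2.56%. They were *slc25a55a* and *slc7a1b*, both lower in *ndr1*-injected embryos, and not *slc35d1a*. In that fit 7.38% of all named genes passed, and 9.25% of those with a mean of at least 10. It was 0 with the mean of all features. With a signal threshold of 11 it was 0 of 43 carriers, and with one of 9 it was 3 of 149. The fit was the same for both, with 6.93% of all named genes below 0.05. With position subtracted in windows of 9 and 15 the count was 4 and 2, with the shares of named genes given above. At a p of at most 0.02 the count of carriers was 0 as fitted. It was 1 with only genes at a mean of at least 10, 1 with the intensity trend and 2 with either window. Shares of named genes at this cutoff in those fits are not given here, so these counts have no background beside them. The median difference of the carriers, -0.03 as fitted, was 0.0445 and 0.0754 with windows of 9 and 15 and 0.0533 with the second brightest feature. For other transport genes the count was 1 of 25 as fitted. It became 2 with only genes at a mean of at least 10, 2 with the intensity trend and 2 of 42 with a threshold of 9. It was 0 with the mean of all features and 0 with windows of 15. Without each array in turn these ran from 0 to 2 carriers at a p below 0.05, 0 to 1 at a p of at most 0.02, medians from -0.0921 to 0.0468, and 0 to 1 other transport genes. *slc7a6os* turned positive, at 0.35 with the mean of all features, 1.11 on its second feature and 0.19 and 0.12 with windows of 9 and 15. *slc25a32a* turned to -0.0629 and -0.0388 with these windows, and *slc25a51b* to 0.28 on its second feature. The causes were not tested. With the replicate number as a block 1 carrier, *slc2a12*, had a p below 0.05 (0.024, adjusted p = 0.707 in limma), *slc35d1a* had a p of 0.0885, and the count of calls stayed at 0. That 1 carrier is 1.28%, against 6.83% of all named genes and 2.87% of those with a mean of at least 10. The labels do not say that the numbers pair the samples. Deviations of same-numbered arrays correlated at 0.174, -0.0961 and 0.0198 over all named genes, over which the model was fitted, so the numbers were not taken as pairs. The answer depends on the genes: the correlations were 0.512, 0.265 and 0.139 over the carriers, 0.349, 0.114 and 0.0106 over genes with a mean of at least 10, and, with position subtracted, 0.2, 0.0804 and 0.0959 over all named genes and 0.439, 0.0197 and 0.221 over the carriers. Arrays of different number correlated from -0.438 to 0.25 over the carriers. They ran from -0.249 to 0.186 over genes with a mean of at least 10. Both upper values were those of control-injected replicate 2 with *ndr1*-injected replicate 3. Over all named genes as deposited, arrays of different number correlated from -0.219 to 0.209. With position subtracted in windows of 9 they ran from -0.125 to 0.0117 over all named genes. There every same-numbered pair correlated more than every pair of different number. Over the carriers, with position subtracted, pairs of different number ran from -0.41 to 0.199. The number of arrays, 3 per group, limits the precision.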
